A study of Mus musculus with 4 samples.

Results

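The genes of the caveola coat were examined in C2C12 myoblasts with and without *Hnrnpl* shRNA. They were taken by symbol: the caveolins *Cav1*, *Cav2* and *Cav3*, the cavins *Cavin1*, *Cavin2*, *Cavin3* and *Cavin4*, and the neck proteins *Ehd2* and *Pacsin3*, 9 of the 56748 gene IDs in the count files. The list was proposed with the contrast of knockdown and scrambled already known, so fold changes of these 9 genes are given as a description and carry no test. C2C12 is an established mouse myoblast line. Its genotype is labelled WT in all 4 libraries, which were grown in the same serum-containing medium. Stable lines were compared, 1 with a scrambled shRNA and 1 with a cocktail of 3 shRNAs against *Hnrnpl*, both grown from clones with an eGFP reporter under puromycin. The 2 libraries of each group came from different passages of 1 selected line, so p-values measure the spread between passages, and the line and its shRNA cannot be told apart. Each of the 2 batches in the labels held 1 scrambled and 1 knockdown library.

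Caveolae are small flask-shaped pits of the plasma membrane. Caveolins are hairpin membrane proteins that bind cholesterol, and cavins are soluble coiled-coil proteins that form the outer coat around them. Cavin-1 is needed for caveolae in all tissues, while cavin-2 and cavin-3 tune their shape and function, and caveolin-3 and cavin-4 are typical of differentiated muscle. In muscle, caveolae are known as a membrane reserve under stretch, and loss of caveolin-3 or cavin-1 in humans causes muscle disease. HnRNP L, the protein lowered here, binds CA repeats in RNA.

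The reads counted on genes ranged from 1229424 to 1676911 a library. A count of 0 therefore allowed up to 1.79 to 2.44 CPM (read counts scaled by library size) at 3 reads. These limits use the plain library sizes, while the CPM of genes given below are also scaled with TMM factors. *Hnrnpl* itself had 358 (scrambled 1), 656 (scrambled 2), 242 (knockdown 1) and 258 reads (knockdown 2). It fell by 0.78 in log2 units (standard error, SE, of 0.18), with an adjusted p of 0.0112 by edgeR (quasi-likelihood test, Benjamini-Hochberg). Without scrambled 2 the log2 fold change was -0.48 (adjusted p = 0.194), and without knockdown 1 it was -0.62 (adjusted p = 0.150), both from edgeR. Of 6 myoblast markers, *Myf5* (113 to 190 reads per library), *Des* (242 to 571) and *Cdh15* (14 to 152) had reads in all 4 libraries, *Itga7* had 2 to 6 reads per library, *Myod1* had 1 read in all and *Pax7* had none. In bulk RNA, fewer cells of a type and less RNA per cell cannot be told apart.

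Because hnRNP L binds CA repeats, the transcripts were searched for CACACACA on the sense strand, with overlapping matches counted. The canonical GENCODE transcript held it in 2 of the 9 genes, *Cavin2* and *Cavin3*, against 19.3% of 8662 tested transcripts. The *Cavin2* transcript of 6665 bases had 11 overlapping matches, all in a run of 29 bases in the 3′ UTR at chr1:51343091-51343119 (GRCm39, forward strand, exon 2). A run at least as long was found in 2.37% of all tested transcripts and in 33 of the 645 (5.12%) whose length was within 10% of that of *Cavin2*. In *Cavin3* the match was a single one in the 3′ UTR at chr7:105128502-105128509 (reverse strand, exon 2). Over the whole gene with introns, CACACACA was found in 7 of the 9 genes, all except *Cavin1* and *Cavin4*, and in 78.9% of tested genes, so a match in an intron was common. The longest run in the whole gene was intronic and measured 47 bases in *Cav1*, 46 in *Cav3* and *Pacsin3*, 42 in *Ehd2*, 36 in *Cavin2* and 16 in *Cav2*. A run as long as the 36 bases of *Cavin2* was found in 35.8% of tested genes. The 2 runs of the transcripts and a short intronic run of *Cav2*, at chr6:17282718-17282733 on the forward strand, are shown with the repeat in capitals, since these are the exonic runs and the shortest of the intronic runs listed. A match describes the letters and is not a measured binding site.
*Cavin2* 3′ UTR: CACACACACACACACACACACACACACAC
*Cavin3* 3′ UTR: gggccagatggCACACACAgaagacgtgca
*Cav2* intron: tatgaagCACACACACACACACAaatgcca

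The 250 bases before the start site, taken from RefSeq (GRCm38.p6), were found for 8 of the 9 genes and 11 start sites. *Cavin3* had no entry. The GC content ranged from 40.4% to 67.6% over these start sites, and *Cavin2* had the lowest. Of 32851 promoters in the table, 13.3% had a GC content at or under that of *Cavin2*, and the median was 52.4%. Motifs were searched on both strands, and a gene was counted if any of its start sites matched. *Cav1*, *Cavin1* and *Pacsin3* had 2 start sites each, while the shares of all promoters count single start sites. The GC box GGGCGG was found in 5 genes (*Cav1*, *Cav2*, *Cavin1*, *Ehd2* and *Pacsin3*) against 32.7% of all promoters. TATAAA was found in *Cav1* and *Cavin4* (12.4% of promoters) and the TEAD motif GGAATG in *Cavin1* and *Pacsin3* (12.6%). The E-box CANNTG was found in 6 of the 8 genes, all except *Cavin1* and *Cavin2* (66.2%), and the CArG box (1.47%) and the MEF2 motif (2.92%) in none. None of these 6 motifs was in the window of *Cavin2*. The windows of the widely expressed *Cavin1*, of *Cavin2* and of the muscle-type *Cavin4* are printed to show this contrast between cavins, with matches other than the E-box in capitals. They lie at chr11:100970618-100970867 (reverse strand), chr1:51288876-51289125 (forward strand) and chr4:48663264-48663513 (forward strand) of GRCm38.p6.
*Cavin1* promoter: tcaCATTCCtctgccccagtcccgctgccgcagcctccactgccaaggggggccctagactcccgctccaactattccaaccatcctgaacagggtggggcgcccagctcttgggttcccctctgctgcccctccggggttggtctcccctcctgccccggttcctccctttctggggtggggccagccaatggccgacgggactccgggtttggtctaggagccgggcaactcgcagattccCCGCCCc
*Cavin2* promoter: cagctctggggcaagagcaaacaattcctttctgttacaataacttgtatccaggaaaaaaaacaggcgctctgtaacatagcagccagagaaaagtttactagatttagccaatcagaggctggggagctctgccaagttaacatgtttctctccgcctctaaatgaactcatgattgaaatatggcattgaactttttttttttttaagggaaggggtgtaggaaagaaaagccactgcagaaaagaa
*Cavin4* promoter: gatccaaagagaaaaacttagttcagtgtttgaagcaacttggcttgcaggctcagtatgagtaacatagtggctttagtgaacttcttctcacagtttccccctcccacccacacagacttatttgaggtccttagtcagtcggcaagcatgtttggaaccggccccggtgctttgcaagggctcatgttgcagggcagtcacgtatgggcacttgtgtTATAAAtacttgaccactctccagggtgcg

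Of the 9 genes, 8 had reads and passed the filter of edgeR. Of these, 1 (*Cavin2*, higher in knockdown) had values inside the limits that define a call over the whole table, which for a list chosen on this contrast is a description. Over all 8670 genes tested, 5.55% were called, 2.33% higher and 3.22% lower. In normalized reads (counts brought to the mean library size with TMM factors), both knockdown libraries lay above both scrambled libraries for *Cav2*, *Cavin2* and *Cavin4*, and below them for *Cavin3*. Over all genes tested, 26.4% lay above and 26.0% below in this way, and 5.95% had an adjusted p under 0.05. Of the 8 genes, 5 had a log2 fold change above 0, beside 49.9% of all genes tested. Their median was 0.15, beside -0.0006 for all genes tested. Since the list was chosen on this contrast, nothing is read from these counts.

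**Figure D1:**
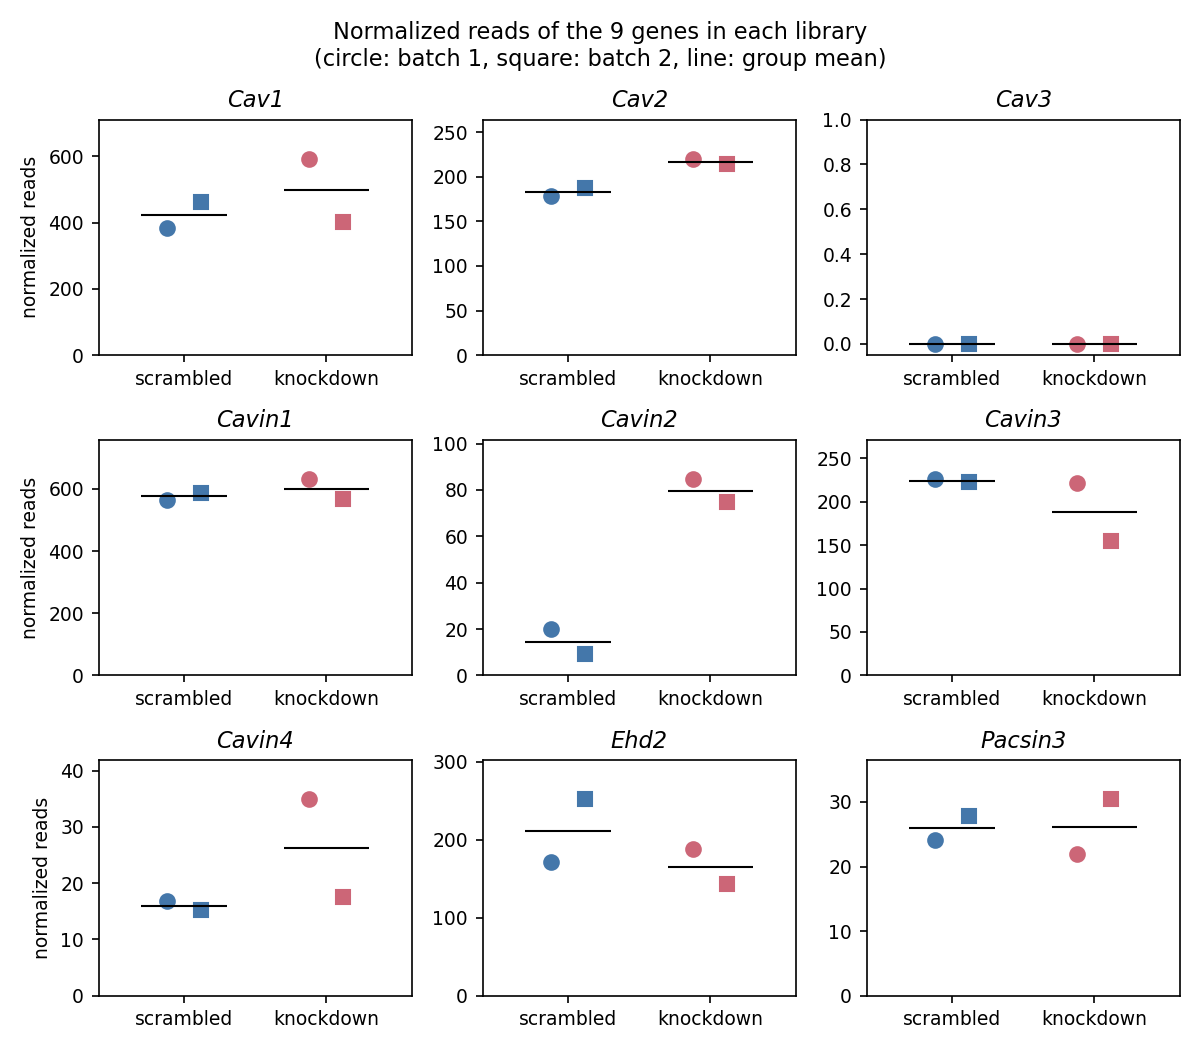
Normalized reads (linear axis from 0) of the 9 genes in each library, with circles for batch 1, squares for batch 2 and a line for the group mean. *Cavin2* stands at 74.8 and 84.7 in knockdown against 9.25 and 19.9 in scrambled, while the groups of *Cav1*, *Cavin1*, *Ehd2* and *Pacsin3* overlap.

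*Cavin2* (ENSMUSG00000045954.8, also known as serum deprivation response, a cavin that bends membranes) is a gene of chromosome 1 (51328266 to 51345710 of GRCm39, forward strand). It had 19 reads in scrambled 1, 11 in scrambled 2, 85 in knockdown 1 and 64 in knockdown 2. Normalized, this was 14.6 ± 7.52 (SD, n = 2) in scrambled against 79.7 ± 6.99 (SD, n = 2) in knockdown. The lower knockdown library lay far above the higher scrambled library. The fitted log2 fold change was 2.50 (SE 0.30), a 5.64-fold higher level in knockdown. With *Cavin2* itself included, 0.0923% of the tested genes had a fold change as high. The list was chosen with this contrast known, so this share is a description and not a test, and nothing is read from it. Within batch 1 the log2 difference was 2.09 and within batch 2 it was 3.01. Leaving out 1 library at a time gave values from 1.99 (without scrambled 2) to 3.09 (without scrambled 1), the latter a fold over 1.5 times as high as with all 4 libraries. The median log2 fold change of the tested genes on chromosome 1 was 0.19.

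*Cavin1* (ENSMUSG00000004044.10), the cavin that caveolae depend on, is a gene of chromosome 11 (100847559 to 100861713, reverse strand). It had 540 and 699 reads in scrambled against 634 and 487 in knockdown, or 577 ± 16.0 and 600 ± 44.2 normalized reads (SD, n = 2 each). The groups overlapped, and the log2 fold change was 0.06 (SE 0.14). *Cavin3* (ENSMUSG00000037060.4), a cavin that binds protein kinase C delta, is a gene of chromosome 7 (105128391 to 105131507, reverse strand). It had 216 and 265 reads in scrambled against 223 and 133 in knockdown. Knockdown 1, at 222.2 normalized reads, was within 1 read of scrambled 2 at 222.9, and knockdown 2 was lower at 155. The log2 fold change of -0.24 (SE 0.17) came to -0.02 without knockdown 2 and to -0.53 without knockdown 1.

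*Cavin4* (ENSMUSG00000028348.8), the muscle-restricted cavin, is a gene of chromosome 4 (48663503 to 48674045, forward strand). It had 16 and 18 reads in scrambled against 35 and 15 in knockdown, or 16.8, 15.1, 34.9 and 17.5 normalized reads. A single library, knockdown 1, stood apart from the other 3. The log2 fold change of 0.75 (SE 0.38) was 0.14 without knockdown 1. Like *Cavin4*, caveolin-3 belongs to differentiated muscle, and *Cav3* (ENSMUSG00000062694.8, chromosome 6 from 112436466 to 112449833, forward strand) had no reads in any library. The reads of myotube markers were few, with 8 of 9 at 0 (*Myog*, *Ckm*, *Myh1*, *Myh3*, *Myh8*, *Actn2*, *Mymk* and *Mymx*) and 7 to 16 reads per library on *Acta1*. A level of *Cav3* under the limits given above was not detectable at this depth.

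*Cav1* (ENSMUSG00000007655.17), the main caveolin outside muscle fibres, and *Cav2* (ENSMUSG00000000058.7), which joins it in mixed oligomers, are neighbours on chromosome 6 (17306140 to 17341451 and 17281026 to 17289877, both forward strand). *Cav1* had 367 and 548 reads in scrambled against 595 and 345 in knockdown. Knockdown 1 was the highest library, at 593 normalized reads, while knockdown 2, at 403, lay between the scrambled libraries at 384 and 461. The log2 fold change was 0.24 (SE 0.17), 0.63 within batch 1 and -0.19 within batch 2. *Cav2* had 171 and 223 reads in scrambled against 221 and 183 in knockdown. At 183 ± 6.06 normalized reads in scrambled against 217 ± 4.46 in knockdown (SD, n = 2 each), the groups did not overlap, and the log2 fold change was 0.24 (SE 0.15). The tested genes of chromosome 6 had a median log2 fold change of 0.28. Relative to that median *Cav1* was at -0.04 and *Cav2* at -0.03.

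The neck proteins curve the membrane where a caveola meets the cell surface. *Ehd2* (ENSMUSG00000074364.7, chromosome 7 from 15680874 to 15701629, reverse strand), an ATPase that holds caveolae at the surface, had 163 and 299 reads in scrambled against 189 and 122 in knockdown. The scrambled libraries differed more from each other (171 and 251 normalized reads) than the group means did (211 and 165). The log2 fold change was -0.35 (SE 0.19), 0.14 within batch 1 and -0.82 within batch 2. *Pacsin3* (ENSMUSG00000027257.14, chromosome 2 from 91086095 to 91095033, forward strand), an F-BAR protein enriched in muscle, had 23 and 33 reads in scrambled against 22 and 26 in knockdown. Its log2 fold change was -0.01 (SE 0.32), with overlapping groups.

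**Figure D2:**
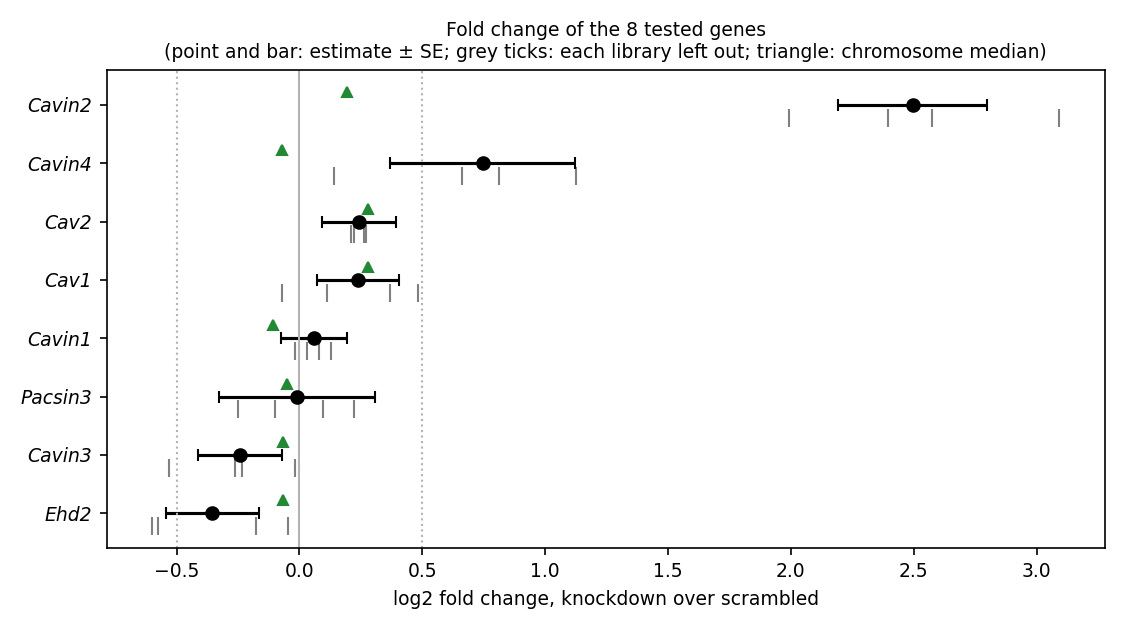
Log2 fold change of knockdown over scrambled for the 8 tested genes, with points and bars for the estimate and its standard error, grey ticks for fits that leave out 1 library each and triangles for the chromosome median. *Cavin2*, at 2.50, is the only gene whose ticks all lie beyond 0.5, and *Cav1* and *Cav2* lie near the triangle of chromosome 6.

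The makeup of the cavin pool was described by the share of each cavin in the cavin reads of a library (791 and 993 reads in scrambled, 977 and 699 in knockdown). *Cavin2* made up 2.40% (95% Wilson interval 1.54% to 3.72%) and 1.11% (0.620% to 1.97%) in scrambled 1 and 2. In knockdown 1 and 2 it made up 8.70% (7.09% to 10.6%) and 9.16% (7.24% to 11.5%). These intervals hold the counting error of single libraries and not the spread between libraries. *Cavin1* held 64.9% to 70.4% of the reads in each of the 4 libraries. *Cavin3* held 27.3% and 26.7% in scrambled against 22.8% and 19.0% in knockdown. In knockdown 1 its level (158.5 CPM) was close to those in scrambled (161.3 and 159.0 CPM) while the cavin sum was higher. The Wilson interval of its share there (20.3% to 25.6%) overlapped those of scrambled (24.3% to 30.5% and 24.03% to 29.5%). In knockdown 2 the interval of its share (16.3% to 22.1%) lay below both scrambled intervals. The sum of the 4 cavins was 593 ± 3.61 CPM in scrambled against 639 ± 78.8 CPM in knockdown (SD, n = 2 each, TMM-scaled), with overlapping groups. For each *Cavin1* read there were 0.0352 and 0.0157 *Cavin2* reads in scrambled against 0.134 and 0.131 in knockdown.

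**Figure D3:**
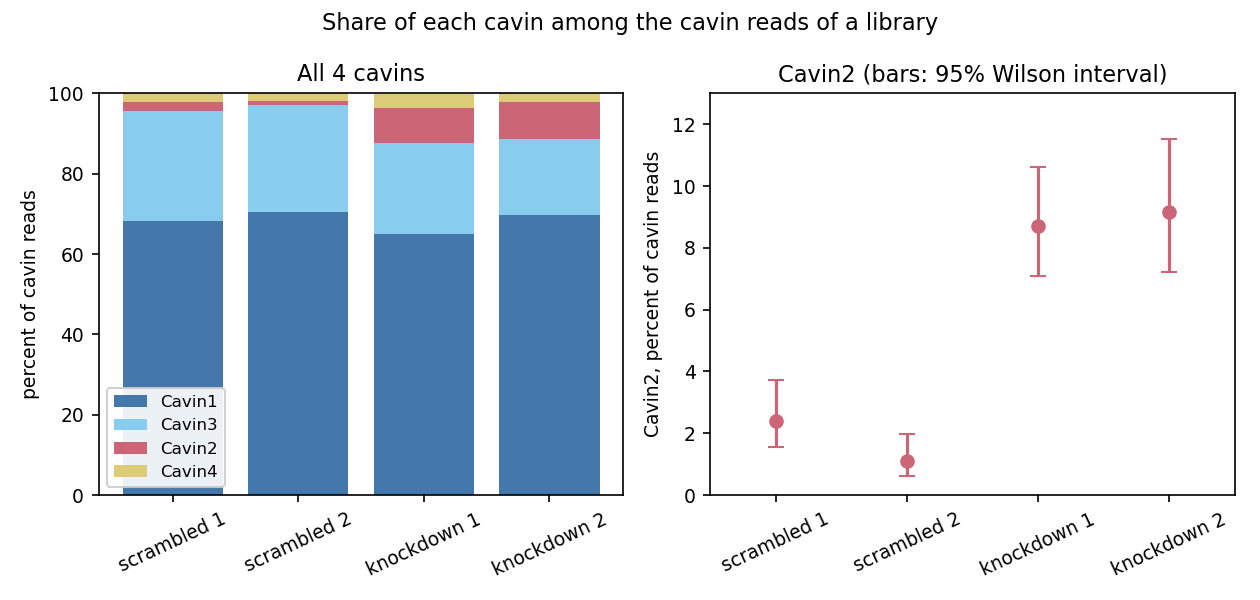
Percent of the cavin reads of each library that fell on each cavin (left, stacked bars from 0 to 100) and on *Cavin2* alone (right, points with 95% Wilson intervals that cover counting error only). The share of *Cavin2* is 8.70% and 9.16% in the knockdown libraries and 2.40% and 1.11% in the scrambled libraries, and *Cavin1* remains the largest share in all 4.

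Among caveolin reads, *Cav1* made up 68.2% and 71.1% in scrambled against 72.9% and 65.3% in knockdown, and *Cav2* the rest. There were 1.89 to 2.69 *Cav1* reads for each *Cav2* read, with the scrambled libraries inside the range of the knockdown libraries. No *Cav3* read among 528 to 816 caveolin reads allows a share of up to 0.368% to 0.568%. The sum of the caveolins was 432 ± 43.1 CPM in scrambled against 510 ± 98.8 CPM in knockdown (SD, n = 2 each).

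To order the genes by level, CPM was divided by the length of the canonical transcript in kilobases. A direct RNA read comes from 1 molecule and starts at its 3′ end, so a level per length puts long transcripts lower than their read counts do. In scrambled, *Cavin1* (118 ± 3.28 CPM per kb) and *Cav1* (106 ± 13.6) had the highest levels, and their ranges overlapped. They were followed by *Cavin3* (62.5 ± 0.634), *Cav2* (37.4 ± 1.24), *Ehd2* (28.6 ± 7.75), *Pacsin3* (9.88 ± 0.992), *Cavin4* (4.36 ± 0.311), *Cavin2* (1.56 ± 0.805) and *Cav3* at 0 (SD, n = 2), all with separate ranges. In knockdown, *Cavin2* was at 8.54 ± 0.748 CPM per kb, in a range that overlapped those of *Pacsin3* (9.97 ± 2.28) and *Cavin4* (7.17 ± 3.35), and the ranges of *Cavin3* and *Cav2* overlapped as well. The places of *Cavin2* and *Ehd2*, whose transcripts are 6665 and 5265 bases long, rest on the division by length. In CPM not divided by length, *Ehd2* in scrambled (121.7 and 179.4) overlapped both *Cav2* (127.7 and 133.8) and *Cavin3* (161.3 and 159.0). *Cavin1* (403 and 420) lay above *Cav1* (274 and 329) in scrambled without the division, where the levels per kb overlapped. On the same undivided scale, *Cavin2* (14.2 and 6.60) overlapped *Cavin4* (11.9 and 10.8) in scrambled. In knockdown, the CPM of *Cavin2* (60.4 and 53.4) lay above that of *Pacsin3* (15.6 and 21.7) and *Cavin4* (24.9 and 12.5).

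**Figure D4:**
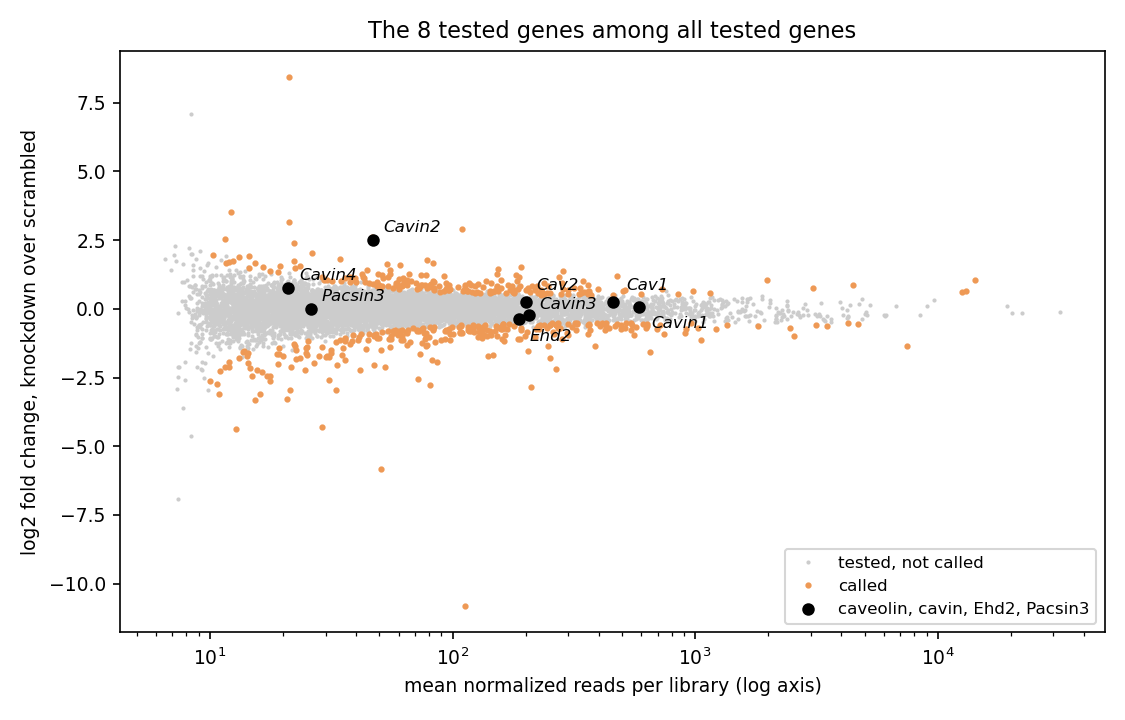
Log2 fold change of knockdown over scrambled against the mean normalized reads per library (log axis) for the 8670 tested genes, with called genes in orange and the 8 tested caveola genes in black. *Cavin2* sits at 47.2 normalized reads and 2.50, above the other tested caveola genes, which lie between -0.35 and 0.75.

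Annotated genes that overlap the members were all on the opposite strand. HTSeq sets aside reads that it assigns to more than 1 gene, and the strand setting is not given, so such reads may be missing from the counts. Over *Cavin2* lies the lncRNA *9330175M20Rik*, with no reads in any library. *Gm57383*, which overlaps *Cavin1*, had 2 and 1 reads in scrambled against 5 and 9 in knockdown. *Cavin4* and *Ehd2* have no overlapping gene in the annotation. Of the nearest tested genes on each side of the members, only *Tmeff2*, 100934 bases before *Cavin2*, was called, and it fell by 2.12 in log2 units (SE 0.50, edgeR adjusted p = 0.0156). *Nabp1*, on the other side of *Cavin2*, had a log2 fold change of -0.08 (SE 0.27).

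Other genes around caveolae were followed in 5 lists. These, like the clathrin and marker lists, were chosen with earlier results of these data known. Their counts and p-values are therefore a description. The 5 lists held 44 genes, of which 33 were tested. Among these, 1 was called lower and none higher, beside 3.22% and 2.33% of all genes. At an unadjusted p under 0.05 in edgeR there were 3 higher and 9 lower of the 33, beside 21.8% of all genes tested in either direction, and DESeq2 with the local or the parametric fit called none of them. The gene called was *Fyn*, a Src-family kinase, with 47 and 59 reads in scrambled against 26 and 17 in knockdown. Its log2 fold change was -1.095 (SE 0.28, edgeR adjusted p = 0.0254). Its adjusted p lay between 0.00741 and 0.479 over the alternatives, and it was over 0.05 when scrambled 2 (0.0511), knockdown 1 (0.0654) or knockdown 2 (0.106) was left out.

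The caveola partners, which hold the dynamins, the kinases that phosphorylate caveolin-1 and the scaffold *Ror1*, had 9 of 10 genes tested, with a median log2 fold change of -0.16. *Ror1*, a receptor known to hold caveolin-1 and cavin-1 together, had 20 and 14 reads in scrambled against 5 and 0 in knockdown. Its log2 fold change was -2.52 (SE 0.67, edgeR adjusted p = 0.0308), but its mean of 9.42 normalized reads was under the limit for a call. The adjusted p was over 0.05 without scrambled 1 (0.218) or knockdown 2 (0.192, at a log2 fold change of -1.66) and in DESeq2 with the parametric fit (0.405). Without knockdown 1, the remaining knockdown library had 0 reads and the fitted log2 fold change was -7.01, which depends on the prior count. *Flna*, the filamin that links caveolae to actin, had the most reads of this list and a log2 fold change of -0.16 (SE 0.13). *Fyn*, described above, is also in this list. Apart from *Fyn* and *Ror1*, no gene of the list had an adjusted p under 0.05, including *Src* (-0.63, edgeR adjusted p = 0.111) and *Abl2* (0.63, edgeR adjusted p = 0.0687).

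The relatives of the neck proteins (*Ehd1*, *Ehd3*, *Ehd4*, *Pacsin1* and *Pacsin2*) had 3 genes tested and none called, with *Ehd1*, an endosomal recycling ATPase, at -0.16 (SE 0.13). None of the 7 genes of flotillins and their relatives (*Flot1*, *Flot2*, *Stom*, *Erlin1*, *Erlin2*, *Phb1* and *Phb2*) was called. Their median log2 fold change was -0.33, the value of *Phb1*, with 6 of 7 below 0 (49.9% of all genes tested were above 0). *Flot1* was at -0.56 and *Flot2* at -0.47, while *Erlin1*, which had the most reads, was at -0.10. Of 14 receptors, transporters and nitric oxide synthases known to reside in caveolae, 9 were tested and none was called. *Nos3*, *Cd36* and *Abca1* had no reads in any library, and *Bmpr1a*, with the most reads, was at -0.43 (edgeR adjusted p = 0.183). Of the 8 membrane repair genes, 5 were tested and none was called. *Ahnak* had the most reads and was at -0.25 (SE 0.14). *Dysf*, the repair protein dysferlin, had 4 and 5 reads in scrambled and none in knockdown, and was not tested. For comparison, the clathrin coat, which serves a separate route of uptake, had 9 of 10 genes tested and none called, with a median log2 fold change of -0.22 and *Clta* at -0.24 (SE 0.14).

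Markers of other cell types and of myoblasts were looked at beside *Cavin2*. Over the 8 endothelial markers there was at most 1 read per library, with *Pecam1*, *Kdr*, *Tie1*, *Emcn* and *Cldn5* at 0 throughout. Over the 6 adipocyte markers there were at most 2, with *Plin1*, *Lep*, *Cidec* and *Retn* at 0. Outside this list, *Pparg* and *Angptl4* were named after their values were seen. *Pparg*, a regulator of fat cell genes, rose by 1.42 in log2 units (SE 0.26, edgeR adjusted p = 0.00271). *Angptl4* rose by 0.68 (SE 0.17, edgeR adjusted p = 0.0252). Within the list, *Fabp4* and *Adipoq* had 0 or 1 read per library, and a shift toward fat cells was not tested. The adjusted p of *Pparg* was over 0.05 in DESeq2 with the parametric fit (0.0963) and without knockdown 1 (0.0566, edgeR). That of *Angptl4* was over 0.05 in DESeq2 (0.167 local, 0.480 parametric), with chromosome medians removed (0.161) and without scrambled 2 (0.157) or knockdown 1 (0.196). Of 4 smooth muscle markers, *Myh11* was at 0, and the 3 with reads added up to 8697 and 6791 CPM in scrambled against 2658 and 3429 CPM in knockdown, nearly all of it *Acta2*. *Acta2* (actin of smooth muscle, also made by myoblasts) fell by 1.36 in log2 units (SE 0.17, edgeR adjusted p = 7.06e-05). The 5 macrophage markers added up to 22.4 and 25.2 CPM in scrambled against 27.0 and 40.0 CPM in knockdown, nearly all of it *Cd14*, with *Ptprc* and *Adgre1* at 0. The 6 myoblast markers added up to 483 and 552 CPM in scrambled against 351 and 310 CPM in knockdown. Among them *Cdh15* (M-cadherin) fell by 2.55 in log2 units (SE 0.24, edgeR adjusted p = 2.03e-06) and *Des* (desmin) fell by 0.56 (SE 0.15, edgeR adjusted p = 0.0308). *Myf5*, the other myoblast marker tested, had a log2 fold change of -0.16 (SE 0.16, edgeR adjusted p = 0.615). The call of *Des* was lost with the replicate block (edgeR adjusted p = 0.0526), in DESeq2 with the parametric fit (0.208) and without scrambled 2 (0.297), knockdown 1 (0.0970) or knockdown 2 (0.117). The part of these markers in the level of *Cavin2* was not tested.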

How the data were processed

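Direct RNA nanopore libraries of 2 scrambled and 2 *Hnrnpl* knockdown C2C12 cultures were used. The deposited counts are whole reads per gene without normalization. Per the submitters' processing notes, the authors used minimap2 2.17 for alignment to GRCm39 and HTSeq 0.9.1 for counting. Basecalling was done in guppy, by the study's methods. The annotation release and the strand setting of the counting are not given in the sources used here. Of the 56748 gene IDs, 56017 were found in GENCODE vM39, which gave symbols, positions and canonical transcripts. The rows of unassigned reads were left out of library sizes and tests. Between 56.5% and 57.8% of the reads of a library were counted on a gene.

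Libraries were compared in edgeR 4.0.16 (R 4.3.3) with TMM factors, filterByExpr and the quasi-likelihood test, with Benjamini-Hochberg adjustment over 8670 genes. Calls needed a mean of over 10 normalized reads, a log2 fold change beyond 0.5 in size and an adjusted p below 0.05, the limits used by the study. The members and the gene lists were chosen with earlier results of these data known, so their values and p-values are a description. The labels give the replicate number as a batch, which pairs the libraries. The deviations of the libraries numbered 1 had a correlation of 0.00258 between groups over 4501 genes. Alternatives were the replicate block, RLE factors, no filter on low counts, DESeq2 1.42.0 (Wald test, local or parametric fit), chromosome medians removed, and each library left out. Intervals are 95% Wilson intervals. Intervals and limits of a count of 0 (3 reads) cover counting error only.

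Named were all members, *Hnrnpl*, every called gene of the other lists and the gene with the most reads in each, overlapping and neighbouring genes, and for *Cav1*, *Cavin1* and *Cavin2* the 3 genes with the nearest profile. Other genes named were chosen after their values were seen.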

Additional observations from a re-analysis of the deposited data

How the results depend on the processing

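With the replicate block, the log2 fold change of *Cavin2* was 2.48, 484 genes were called beside 481 without it, and the call of *Fyn* did not change. The calls numbered 228 in DESeq2 (local), 115 in DESeq2 (parametric), 285 with chromosome medians removed and 612 with no filter on low counts. Leaving out single libraries gave 194 (without knockdown 1) to 433 calls. Of the 44 caveola-related genes, 0 were called in either DESeq2 fit, and 0 to 4 were called with a library left out, the 4 without scrambled 1 (*Abl2*, *Flot1*, *Fyn* and *Src*). *Hnrnpl* was at -0.78 with the DESeq2 parametric fit (adjusted p = 0.0567) and between -1.03 and -0.48 with a library left out. With chromosome medians removed, *Cav1* was at -0.0394, *Cav2* at -0.0345 and *Pacsin3* at 0.0424, and with the replicate block *Pacsin3* was at 0.0093. With single libraries left out, *Cav1* lay between -0.0703 and 0.48, *Cavin1* between -0.0192 and 0.13 and *Pacsin3* between -0.25 and 0.22. The cause of these shifts was not tested. With 11 to 85 reads per library, *Cavin2* and likewise *Cavin4* and *Pacsin3* are less precise than *Cav1* and *Cavin1*.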

Other observations

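The genes with the profile most like a member over the 4 libraries were listed by the distance of log2(CPM + 1) values centred on each gene, among 8499 other genes with a mean over 10 normalized reads. With 4 libraries, such likeness is a description of these libraries. For *Cavin2* the nearest was *Fgf7*, a fibroblast growth factor, at a distance of 0.481, with 31 and 24 reads in scrambled and 211 and 149 in knockdown. *Actg2*, an actin of smooth muscle, followed at 0.748, with 4 and 3 reads in scrambled and 15 and 21 in knockdown. The third was *Cxcl5*, a chemokine, at 0.753, with 48 and 27 reads in scrambled and 106 and 116 in knockdown. For *Cavin1* the nearest were *Hnrnpul1* (0.0204), *Aaas* and *Gsn*, and for *Cav1* they were *Arhgap18* (0.0106), *Inka2* and *Tyw5*.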
